A study of Rattus norvegicus with 36 samples.

Results

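The genes described here carry out fatty acid oxidation and ketone body formation in the liver. A list of 37 genes was matched by name to the 22523 probes of a rat liver array series, and 36 of them had a probe. Of these, 34 were detected on at least 4 of 36 arrays and were tested together with all other genes passing that filter, 9314 in all. The tested genes comprised 3 genes of the carnitine shuttle and 14 enzymes of mitochondrial β-oxidation (17 mitochondrial genes), 7 of 8 peroxisomal genes, 4 acyl-CoA synthetases or thioesterases, 3 genes that act in both organelles or outside these classes (Crat, Pex11a and Bdh1), and 3 of 5 regulators and inducible targets (Pdk4, Cyp4a1 and Fgf21). Ehhadh had no probe under its own name. Ppara, the fatty acid receptor, and Ppargc1a, a coactivator of mitochondrial genes, were each detected on 1 array and were not tested.

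Fatty acids are activated to acyl-CoA by synthetases. Long chains enter mitochondria through the carnitine shuttle (Cpt1a, Slc25a20 and Cpt2), where dehydrogenases, hydratases and thiolases shorten them and electron transfer flavoprotein takes up the electrons. Peroxisomes shorten very long and branched chains and the side chain of bile acid precursors. In fasting liver the acetyl-CoA is turned into ketone bodies, and the receptor encoded by Ppara, bound to DNA with a retinoid X receptor, raises many of these genes.

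The study asked how vitamin A deficiency changes the liver when bile flow is blocked. All animals were male Wistar rats that were operated and injected daily into the peritoneum. Diet was vitamin A deficient (VAD) before the operation or sufficient (VAS), the operation was bile duct ligation (BDL) or SHAM, and the injection was retinyl palmitate (VITA) or vehicle (VEH). The groups were VAD BDL VITA, VAD BDL VEH, VAS BDL VITA and VAS BDL VEH with 5 rats each, and VAD SHAM VITA, VAD SHAM VEH, VAS SHAM VITA and VAS SHAM VEH with 4 rats each, with 1 array of whole liver per rat. The sources used here state neither ages and doses nor how long the diet and the ligation lasted. Levels are log2 normalised intensities of 1 probe, changes are differences of log2 group means with their standard error (SE), and a gene was called at a limma p under 0.05 after Benjamini and Hochberg adjustment over 9314 genes (adjusted p). A probe's level cannot be set against that of another probe.

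Each array detected 6577 to 8587 probes (29.2% to 38.1%), and arrays of a group correlated at 0.9437 to 0.9871, with 0 pairs identical. The arrays lay on 3 slides that hold unequal parts of the groups, so values within slides are given below. Of 15 hepatocyte markers, 13 were tested, with median changes of -0.13 to 0.09 over the 12 comparisons of groups below. Apob was below background on all arrays. Against VAS BDL VEH, Apoa2 and Otc fell in VAD BDL VEH rats, by 2.02 (SE 0.16) and 1.26 (SE 0.17; limma adjusted p = 2.9e-11 and 8.1e-07). Against VAD SHAM VEH, 4 of 13 fell in VAD BDL VEH rats, Apoa2 by 2.54, Otc by 1.49, Asgr2 by 1.20 and Ttr by 0.63 (limma adjusted p = 3.2e-13, 5.7e-08, 0.00047 and 0.0025). Hepatocyte markers also fell in the other ligation comparisons. Against VAS SHAM VEH, Apoa2 fell by 0.56 in VAS BDL VEH rats (SE 0.17, limma adjusted p = 0.018). Against VAS SHAM VITA, 2 of 13 fell in VAS BDL VITA rats. Against VAD SHAM VITA, 4 of 13 fell and 1 rose in VAD BDL VITA rats.

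Replicate 5 of VAD BDL VITA stood apart in these genes. Expressed as the mean deviation from each gene's mean over 36 arrays, its 17 mitochondrial genes lay at 0.40 and its 7 peroxisomal genes at 0.40, against -0.49 to -0.07 and -0.37 to -0.23 in the other 4 rats of its group. Sham rats of the 4 groups had 0.14 to 0.62 and -0.10 to 0.64. Its Krt19, a bile duct keratin, was 9.10, within the 8.76 to 9.91 of its group and above the 5.30 to 7.22 of all sham rats. Not all its genes were high, since Acaa1a (12.69) and Acox3 (7.79) were the lowest of the group. The counts of called genes in VAD BDL VITA comparisons are therefore also given without this rat, as are the values of most genes named there.

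**Figure D1:**
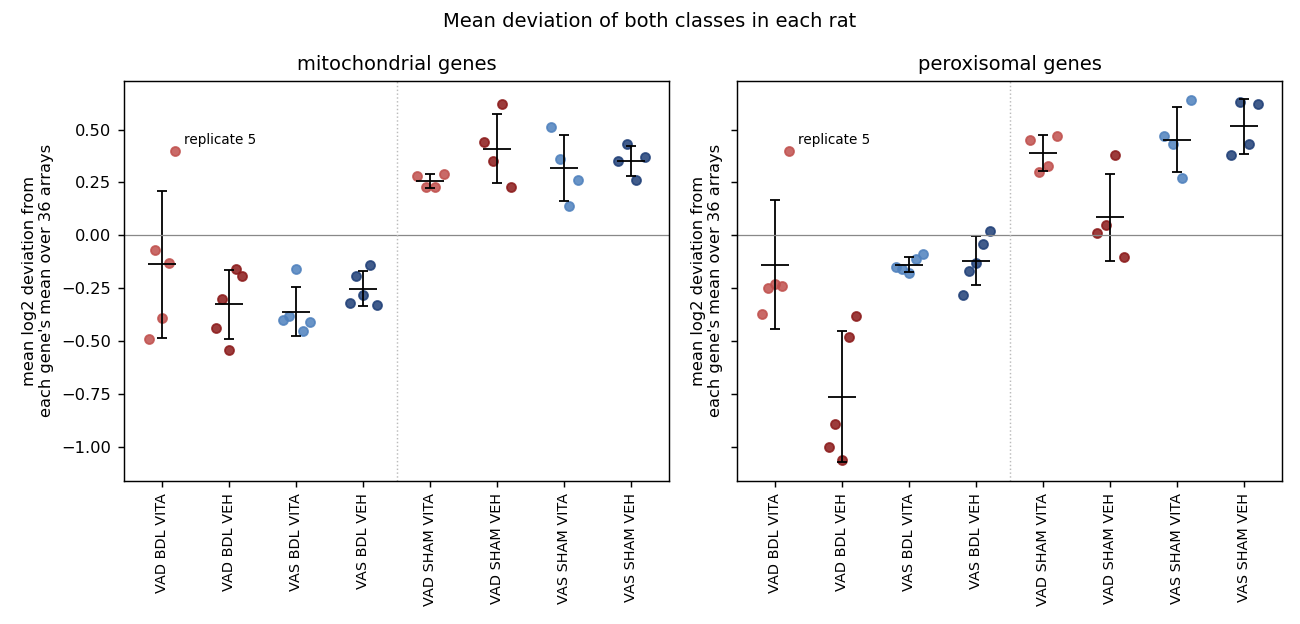
Mean log2 deviation of the 17 mitochondrial and 7 peroxisomal genes from each gene's mean over 36 arrays (y axis) in each rat (points) of the 8 groups (x axis), with the group mean and SD (bars). Ligated groups stand left of the dotted line. Peroxisomal genes in VAD BDL VEH rats (-1.06 to -0.38) lie below those of all other ligated rats, mitochondrial genes (-0.54 to -0.16) do not, and VAD BDL VITA replicate 5 lies at 0.40 in both.

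Promoters were searched, from 250 bases before to 50 bases after each RefSeq start (GRCr8), for paired AGGTCA half-sites on both strands. The Ppara receptor is known to bind the 1-base direct repeat (DR1, AGGTCANAGGTCA), retinoic acid receptors the 5-base direct repeat (DR5, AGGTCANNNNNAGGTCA) and the bile acid receptor the inverted repeat (IR1, AGGTCANTGACCT). With up to 2 mismatches, DR1 was found in 5 of 33 member promoters and in 3.77% of 33469 promoters, DR5 in 1 of 33 (Eci2) and in 2.83%, and IR1 in 0 of 33 and in 1.51%. The 5 stretches with DR1 are shown 5′ to 3′ on the gene's strand, with the match in capitals:
Acadvl: gggagaagAGGTCAGTGGTCAaggcttca
Slc25a20: cttaatgtAGGTGAAAGGTCGgtgtagcc
Crat: gacgttcaAGGACACCGGTCAgacttgga
Echs1: ccgctaaaAGACCTCTGATCTgatcttcc
Etfa: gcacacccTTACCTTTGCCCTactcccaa
The Acadvl stretch (chr10:55236702-55236730, minus strand) had 1 mismatch and lies 17 bases before the start. The others had 2 mismatches and lie at chr8:118243580-118243608 (Slc25a20, plus strand), chr3:34087302-34087330 (Crat, minus strand), chr1:204333641-204333669 (Echs1, minus strand, repeat on the opposite strand) and chr8:64788099-64788127 (Etfa, minus strand, repeat on the opposite strand). A match describes letters and not binding. Acadl, Acaa2, Decr1 and Cyp4a1 had no promoter sequence and were not searched, while members that were not tested for expression were searched too.

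Ligation was first compared in rats with sufficient vitamin A. Of the 34 genes, 17 were lower in VAS BDL VEH than in VAS SHAM VEH rats and 0 higher, where 17.4% of all genes tested were called and 6.87% were lower. The mitochondrial genes had 8 of 17 lower (Cpt1a, Acadvl, Hadha, Hadh, Echs1, Decr1, Etfb and Etfdh) and a median change of -0.50, the peroxisomal genes 2 of 7 lower (Acox2 and Crot) and a median of -0.50, and all genes tested a median of -0.01. In bulk liver, fewer cells of a type and less RNA per cell cannot be told apart. Cpt1a, the outer membrane carnitine transferase that controls entry of fatty acids, had 8.48 to 10.26 with a median of 10 in VAS BDL VEH rats, against 11.17, 10.91, 10.59 and 11.33 in VAS SHAM VEH rats. All 5 ligated rats lay below all sham rats, and the change was -1.34 (SE 0.40, limma adjusted p = 0.015). Hadh, which oxidises the hydroxyacyl group of shorter chains, fell by 1.01 (SE 0.15, limma adjusted p = 1.3e-05), and Decr1, which removes double bonds, by 1.10 (SE 0.22, limma adjusted p = 0.00034). Both subunits of the electron transfer flavoprotein were measured, and Etfb fell by 0.95 (SE 0.23, limma adjusted p = 0.0038) while Etfa had -0.19 (SE 0.23, limma adjusted p = 0.65). The other 8 mitochondrial genes that were not called had changes of -0.61 to -0.21.

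Among the peroxisomal genes, Acox2, the oxidase of branched chains and bile acid precursors, had 8.89, 9.09, 9.33, 9.40 and 9.49 in VAS BDL VEH rats, against 10.30, 10.78, 10.61 and 10.67 in VAS SHAM VEH rats. Crot, the carnitine transferase for medium chains leaving the peroxisome, had 9.67, 9.48, 9.73, 9.76 and 10.28 in VAS BDL VEH rats, against 10.40, 11.93, 10.84 and 11.73 in VAS SHAM VEH rats. Neither gene overlapped between the groups, and they fell 2.55-fold (-1.35, SE 0.26, limma adjusted p = 0.00025) and 2.72-fold (-1.44, SE 0.32, limma adjusted p = 0.0012). The other 5 peroxisomal genes were not called and had changes of -0.74 (Decr2) to 0.11 (Acaa1a). Crat, which moves short acyl groups between CoA and carnitine in both organelles, had 5.75, 5.23, 5.38, 5.45 and 5.66 in VAS BDL VEH rats, of which 3 were detected, against 6.20, 7.23, 6.86 and 7.43 in VAS SHAM VEH rats. It fell 2.71-fold (limma adjusted p = 0.00044), with no overlap. Pex11a, a peroxisome division gene, fell by 1.26 (SE 0.29, limma adjusted p = 0.0017) and Bdh1, which makes the ketone body β-hydroxybutyrate, by 1.32 (SE 0.20, limma adjusted p = 9.5e-06).

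Of the remaining classes, both long-chain synthetases fell, Acsl1 by 0.66 (SE 0.19, limma adjusted p = 0.011) and Acsl5 by 0.92 (SE 0.23, limma adjusted p = 0.0046). Pdk4, the kinase that holds back pyruvate oxidation when fat is burned, had 6.30, 6.38, 6.43, 7.33 and 6.94 in VAS BDL VEH rats, against 7.74, 7.93, 8.16 and 8.71 in VAS SHAM VEH rats. The groups did not overlap and the fall was 2.75-fold (-1.46, SE 0.28, limma adjusted p = 0.00026). Fgf21, a hormone of the fasting liver, had 5.78, 5.44, 5.69, 6.45 and 5.58 in VAS BDL VEH rats, of which 4 were detected, against 6.62, 8.16, 6.24 and 7.56 in VAS SHAM VEH rats. Its groups overlapped in 1 ligated rat (change -1.35, SE 0.46, limma adjusted p = 0.038), and leaving out any 1 of 6 of the 9 arrays ended that call (adjusted p of 0.063 to 0.18; for example -1.02 without VAS SHAM VEH replicate 2). Without VAS SHAM VEH replicate 4 the calls of Cpt1a (-1.23, limma adjusted p = 0.053) and Acadvl (-0.42, limma adjusted p = 0.055) were also lost, as was that of Cpt1a without VAS BDL VEH replicate 3 (-1.05, limma adjusted p = 0.064). Within slides 1, 2 and 3 the mitochondrial medians were -0.56, -0.42 and -0.74 and the peroxisomal medians -0.67, -0.57 and -0.59, with 17 of 17 called genes moving the same way on each.

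Markers of some other cell types moved with ligation. The summed intensity of 5 bile duct markers was 1096 to 2038 in VAS BDL VEH rats, against 270 to 560 in VAS SHAM VEH rats, that of 6 macrophage markers 4275 to 6524 against 2177 to 2360, and that of 5 stellate cell and myofibroblast markers 1669 to 2344 against 466 to 791. Of those lists Sox9 was below background on all arrays. Of the 6 macrophage markers, 5 were called higher and 1 lower, Cd14 (-1.31, SE 0.26, limma adjusted p = 0.00048). In both ligation comparisons of supplemented rats below, 5 were likewise higher and 1 lower. The hepatocyte sum was 222758 to 236677 in VAS BDL VEH rats, against 223401 to 246575 in VAS SHAM VEH rats. Sums of T and NK cell markers (276 to 426 against 250 to 351) and endothelial markers (57 to 123 against 65 to 92) overlapped between these groups. The part of these cells in the changes was not tested.

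Ligation was next compared in deficient rats. Of the 34 genes, 26 were lower and 1 higher in VAD BDL VEH than in VAD SHAM VEH rats, where 40.5% of all genes were called and 19.7% were lower. The mitochondrial genes had 13 of 17 lower (median -0.75) and the peroxisomal genes 6 of 7 (median -0.77), against a median of -0.04 for all genes. All 3 shuttle genes fell, and Slc25a20, the carrier of acylcarnitine across the inner membrane, had 8.89, 8.93, 8.22, 8.58 and 8.83 in VAD BDL VEH rats, against 9.85, 9.70, 9.98 and 9.91 in VAD SHAM VEH rats. It fell by 1.17 (SE 0.21, limma adjusted p = 3.1e-05) with no overlap. The 4 mitochondrial genes that were not called were the long-chain dehydrogenase Acadl (-0.19), the trifunctional protein subunit Hadhb (-0.17), the isomerase Eci1 (-0.21) and Etfa (-0.50). The 1 peroxisomal gene not called was Crot (-0.27, SE 0.32, limma adjusted p = 0.53).

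Decr2, the peroxisomal enzyme that removes double bonds, had 8.10, 8.22, 7.58, 9.13 and 9.08 in VAD BDL VEH rats, against 9.67, 9.57, 10.15 and 10.16 in VAD SHAM VEH rats. All ligated rats lay below all sham rats and the fall was 2.75-fold (-1.46, SE 0.27, limma adjusted p = 4e-05). Acox2 had 8.85, 9.39, 8.70, 9.77 and 9.02 in VAD BDL VEH rats, against 10.33, 10.42, 11.03 and 10.20 in VAD SHAM VEH rats (-1.35, SE 0.26, limma adjusted p = 7.3e-05), without overlap. Bdh1 had 8.56, 9.05, 9.06, 9.59 and 9.5 in VAD BDL VEH rats, against 10.79, 10.93, 11.01 and 10.74 in VAD SHAM VEH rats. That 3.28-fold fall (limma adjusted p = 1.6e-08) was the third largest change among the 34 genes.

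The largest fall was in Acsl1, the main long-chain acyl-CoA synthetase of liver. It had 11.15, 11.70, 11.60, 11.84 and 11.91 in VAD BDL VEH rats, against 13.72, 13.89, 14.07 and 13.02 in VAD SHAM VEH rats, a 4.10-fold fall (-2.04, SE 0.19, limma adjusted p = 1.5e-10) without overlap. Acot1, a cytosolic thioesterase that splits acyl-CoA, was the gene that rose, with 9.13, 8.00, 6.74, 8.11 and 8.98 in VAD BDL VEH rats, against 4.43, 4.60, 5.16 and 5.09 in VAD SHAM VEH rats. Its probe was below background on all 4 sham arrays, so the rise is given as at least 5.42-fold (limma adjusted p = 5e-08). The probe was detected on 8 arrays, 5 of VAD BDL VEH and 3 of VAD BDL VITA rats. It thus passed the filter only through the groups where it was high. Its p-values and calls, here and below, are therefore not independent support for its changes. Pdk4 had 6.89, 6.58, 5.63, 6.11 and 6.52 in VAD BDL VEH rats, against 8.22, 7.19, 7.54 and 7.32 in VAD SHAM VEH rats (-1.22, SE 0.28, limma adjusted p = 0.00069), again without overlap. Some weaker calls were lost on leaving out single arrays, namely Cyp4a1 with any 1 of 6 of 9 arrays (adjusted p of 0.051 to 0.16; -0.53 without VAD BDL VEH replicate 3), Acadvl with 4 (VAD BDL VEH replicates 1 and 3, VAD SHAM VEH replicates 1 and 3; adjusted p of 0.07 to 0.12), Acaa1a with 3 (VAD BDL VEH replicate 4, VAD SHAM VEH replicates 1 and 2; adjusted p of 0.06 to 0.075) and Cpt1a with 3 (VAD BDL VEH replicate 3, VAD SHAM VEH replicates 2 and 3; adjusted p of 0.054 to 0.089). Slides 1 and 3 held both groups, and there the mitochondrial medians were -0.88 and -0.62 and the peroxisomal medians -0.86 and -0.46, with 27 of 27 called genes moving the same way.

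**Figure D2:**
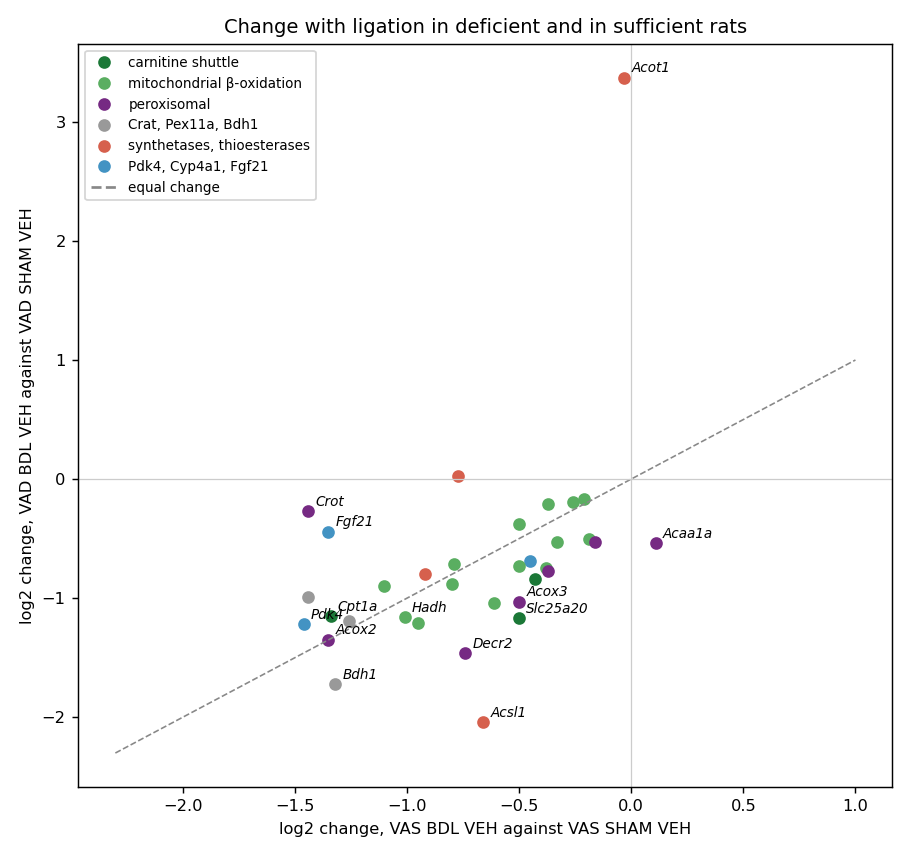
Log2 change with ligation of the 34 tested genes in deficient rats (y axis) and in sufficient rats (x axis), coloured by class, with a dashed line of equal change. Acsl1 (-2.04 in deficient and -0.66 in sufficient rats) lies below the line and Acot1 far above it, while Crot (-0.27 and -1.44) and Fgf21 (-0.44 and -1.35) lie above it.

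The difference between these responses was tested as an interaction. Only 2 of 34 genes passed, where 7.92% of all genes were called, 4.25% positive and 3.67% negative, so the larger count in deficient rats is not by itself a difference. Acsl1 fell further in deficient rats (interaction -1.37, SE 0.26, limma adjusted p = 0.00079). Acot1 rose in deficient rats and was below background on every array of both sufficient groups (interaction 3.40, SE 0.58, limma adjusted p = 0.00022), so that the size rests on background levels in 3 of the 4 groups. Decr2 (-0.73, SE 0.38), Acaa1a (-0.65, SE 0.27) and Crot (1.18, SE 0.45) had limma adjusted p of 0.28, 0.14 and 0.11. Peroxisomal interactions had a median of -0.39 and mitochondrial ones -0.15, against -0.01 for all genes.

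Genes around the members were counted too. Of 17 tested genes of peroxisome biogenesis and membrane, 14 were lower and 0 higher in VAD BDL VEH than in VAD SHAM VEH rats (median -0.87), against 3 lower and 0 higher in VAS BDL VEH against VAS SHAM VEH (median -0.43). Catalase (Cat) fell by 1.54 (SE 0.25, limma adjusted p = 8e-06) and Pex16 by 1.02 (SE 0.15, limma adjusted p = 2.2e-06) in deficient rats. Of 26 general mitochondrial genes (respiratory chain, citrate cycle and membrane), 5 were lower and 3 higher in deficient rats (median -0.19), against 3 lower and 0 higher in sufficient rats (median -0.05), where 19.7% of all genes were lower in deficient and 6.87% in sufficient rats, so that the share of lower genes on this list was near that of all genes in deficient rats. Of 48 other genes of lipid breakdown, ketone body and fuel selection pathways, 27 were lower and 4 higher in deficient rats, against 16 and 4 in sufficient rats. The interaction passed for 2 of 17, 0 of 26 and 7 of 48 genes of these lists, where 7.92% of all genes passed. On the peroxisome list 2 were negative and 0 positive, and on the pathway list 6 were negative and 1 positive. Of all genes, 3.67% were negative and 4.25% positive. The share of negative genes on these 2 lists was thus above that of all genes, although on the peroxisome list it rests on 2 genes. Whether a list as a whole differed between the diets was not tested. Ucp2, a mitochondrial carrier abundant in macrophages, rose by 2.86 (SE 0.22, limma adjusted p = 2.8e-12) in deficient and by 1.71 (SE 0.22, limma adjusted p = 5.9e-07) in sufficient rats, while Hacl1, the peroxisomal lyase of branched chains, fell by 2.20 (SE 0.28, limma adjusted p = 1.2e-07) in deficient rats. In VAD BDL VEH rats the bile duct, macrophage and stellate marker sums were 3948 to 6849, 14704 to 22628 and 8782 to 15802, against 337 to 709, 2460 to 3937 and 829 to 1248 in VAD SHAM VEH rats. The hepatocyte sum was 198070 to 235827 in VAD BDL VEH rats, against 240648 to 250332 in VAD SHAM VEH rats, with no overlap. The part of those cells was not tested.

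Deficiency was then compared within ligated rats, and the counts are given by organelle. A difference between the organelles was not itself tested. Of the 7 peroxisomal genes, 5 were lower in VAD BDL VEH than in VAS BDL VEH rats (Decr2, Acaa1a, Acox3, Eci2 and Hsd17b4; median -0.73), and of the 17 mitochondrial genes 2 were lower (Hadh and Etfa; median -0.19), with a median of -0.04 over all genes. With 1 array left out the mitochondrial median ran from -0.29 (VAS BDL VEH replicate 1) to -0.07 (VAD BDL VEH replicate 1) and was -0.11 without VAS BDL VEH replicate 2, while the peroxisomal median ran from -0.90 to -0.61. In all 11 of 34 genes (32.4%) were called, 9 lower and 2 higher, where 26.4% of all genes were called, 12.1% lower and 14.3% higher. The share called in either direction was thus near that of all genes. By direction, the share of lower members was above that of all genes and the share of higher members below it. The mean deviation of the peroxisomal genes was -1.06 to -0.38 in VAD BDL VEH rats, against -0.28 to 0.02 in VAS BDL VEH rats, and that of the mitochondrial genes was -0.54 to -0.16 against -0.33 to -0.14. The peroxisomal ranges did not overlap and the mitochondrial ranges did. No gene of the 17 was called higher, and those not called had changes of -0.50 (Slc25a20) to 0.82 (Cpt1a).

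Decr2 had 8.10, 8.22, 7.58, 9.13 and 9.08 in VAD BDL VEH rats, against 9.44, 9.70, 9.77, 9.43 and 9.70 in VAS BDL VEH rats. It fell 2.27-fold (-1.18, SE 0.25, limma adjusted p = 0.00048) with no overlap. Acaa1a, a peroxisomal thiolase, had 12.53, 12.44, 12.63, 12.17 and 12.48 in VAD BDL VEH rats, against 13.36, 13.50, 13.39, 13.62 and 13.13 in VAS BDL VEH rats. All deficient rats lay below all sufficient ones (-0.95, SE 0.18, limma adjusted p = 9.9e-05). Its probe carried the older name ACAA1, and whether it also binds Acaa1b, counted among the other pathway genes, was not tested. Acox3, an oxidase of branched chains, had 7.08, 7.84, 7.46, 7.66 and 8.20 in VAD BDL VEH rats, against 8.12, 8.50, 8.28, 8.65 and 8.53 in VAS BDL VEH rats, so that 1 deficient rat overlapped (-0.77, SE 0.18, limma adjusted p = 0.0015). Eci2, the isomerase, fell by 0.73 (SE 0.20, limma adjusted p = 0.0065) and Hsd17b4, the bifunctional enzyme for branched chains, by 0.38 (SE 0.10, limma adjusted p = 0.0047). Acox2 (-0.09, SE 0.24) and Crot (-0.40, SE 0.30), the peroxisomal genes called in VAS BDL VEH against VAS SHAM VEH, were not called.

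**Figure D3:**
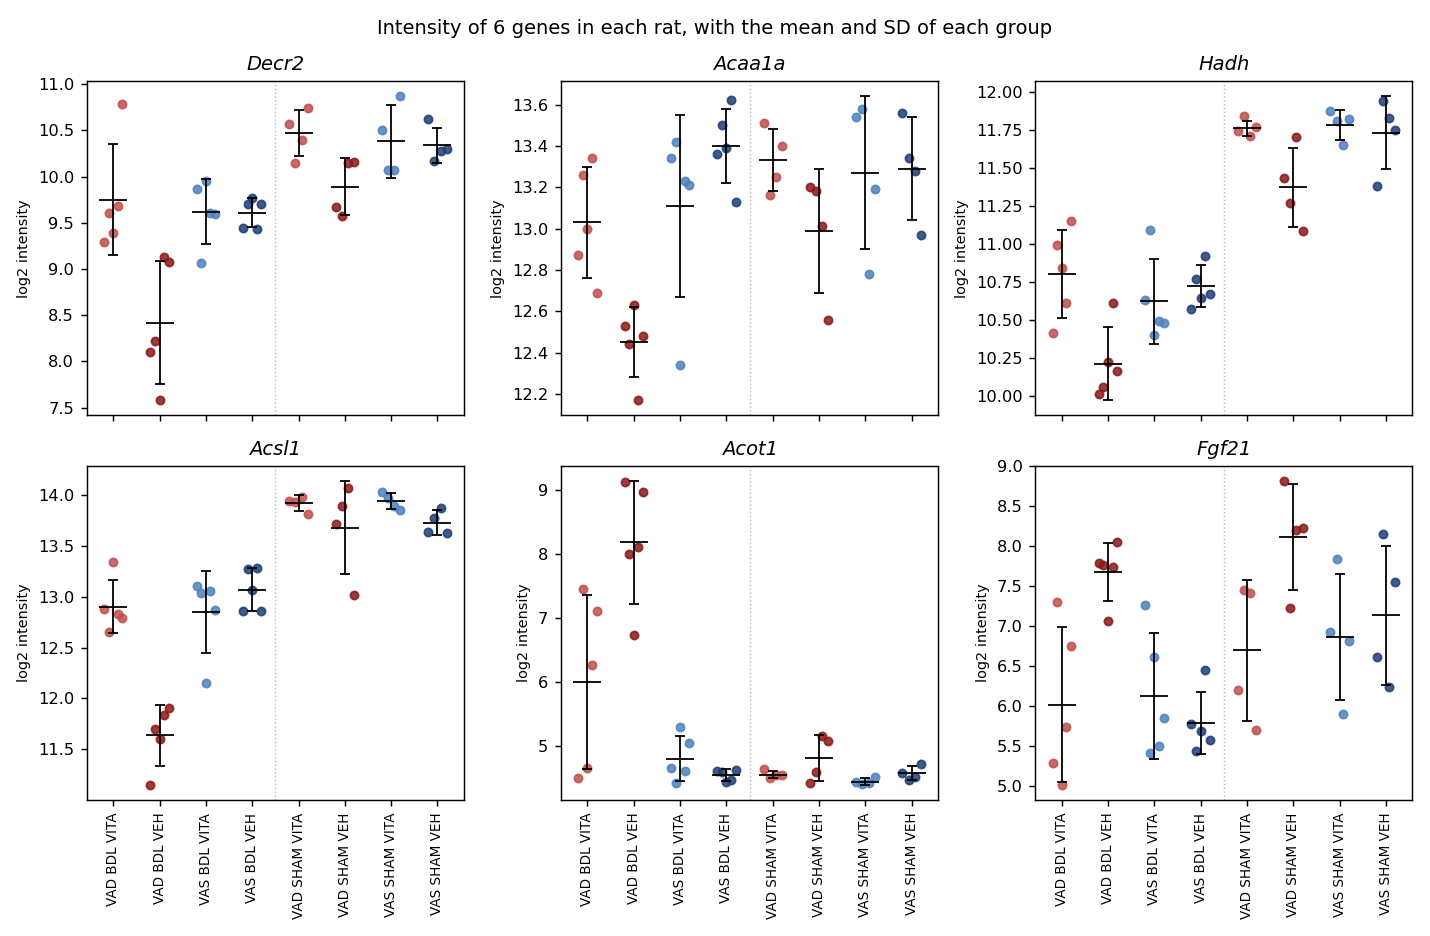
Log2 normalised intensity (y axis) of Decr2, Acaa1a, Hadh, Acsl1, Acot1 and Fgf21 in each rat (points) of the 8 groups (x axis, ligated groups left of the dotted line), with the group mean and SD (bars). VAD BDL VEH rats hold the lowest Acsl1 values (11.15 to 11.91) and the highest Acot1 values of any vehicle group (6.74 to 9.13).

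Outside these classes Acsl1 had 11.15, 11.70, 11.60, 11.84 and 11.91 in VAD BDL VEH rats, against 12.86, 13.27, 13.07, 13.28 and 12.86 in VAS BDL VEH rats. It fell 2.69-fold (-1.43, SE 0.18, limma adjusted p = 1.2e-07) with every deficient rat below every sufficient one. Acot1 had 9.13, 8.00, 6.74, 8.11 and 8.98 in VAD BDL VEH rats, against 4.61, 4.60, 4.45, 4.47 and 4.63 in VAS BDL VEH rats. It was below background on all 5 VAS BDL VEH arrays, a rise of at least 6.58-fold (limma adjusted p = 8.3e-09). Since its probe passed the filter only through VAD BDL rats, that p is not independent support. Acot2, the mitochondrial thioesterase, had a change of 0.26 (SE 0.28, limma adjusted p = 0.56), and since the thioesterase genes are close copies, which of them each probe binds was not tested. Fgf21 had 7.79, 7.77, 7.07, 7.74 and 8.05 in VAD BDL VEH rats, against 5.78, 5.44, 5.69, 6.45 and 5.58 in VAS BDL VEH rats. It rose 3.72-fold (1.89, SE 0.43, limma adjusted p = 0.0011) without overlap, although 1 sufficient rat was below background. Hadh fell by 0.50 (SE 0.15, limma adjusted p = 0.0089), Etfa by 0.56 (SE 0.21, limma adjusted p = 0.049) and Bdh1 by 0.50 (SE 0.19, limma adjusted p = 0.045). The calls of Etfa and Bdh1 were each lost on leaving out 7 of the 10 arrays one at a time (adjusted p of 0.061 to 0.15 and 0.059 to 0.18; -0.35 for Bdh1 without VAD BDL VEH replicate 1). On slides 1, 2 and 3 the mitochondrial medians were -0.15, -0.33 and 0.01 and the peroxisomal medians -0.76, -0.82 and -0.43, with 11 of 11 called genes moving the same way.

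In VAD BDL VEH against VAS BDL VEH, 6 of 17 peroxisome biogenesis genes were lower and 0 higher (median -0.44), with Cat at -1.42 (SE 0.24, limma adjusted p = 1.9e-05) and Pex6, which recycles the import receptor, at -0.79 (SE 0.17, limma adjusted p = 0.00061). Of 26 general mitochondrial genes 5 were lower and 0 higher (median -0.11), led by Sdha of complex II (-0.75, SE 0.19, limma adjusted p = 0.0023). Of all genes 26.4% were called, 12.1% lower and 14.3% higher. The share called on the general mitochondrial list in either direction was below that of all genes. Its share of lower genes was above the 12.1% of all genes. Of the 48 other pathway genes 17 were lower and 4 higher (median -0.27), with Hacl1 at -1.58 (SE 0.27, limma adjusted p = 2.2e-05) and Pdk2, another pyruvate dehydrogenase kinase, at -1.44 (SE 0.18, limma adjusted p = 2.4e-07). The bile duct, macrophage and stellate sums were 3948 to 6849, 14704 to 22628 and 8782 to 15802 in VAD BDL VEH rats, against 1096 to 2038, 4275 to 6524 and 1669 to 2344 in VAS BDL VEH rats. The hepatocyte sum was 198070 to 235827 against 222758 to 236677. The part of these cells in the changes was not tested.

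In sham rats deficiency changed 1 of 34 genes, where 1.11% of all genes were called and 0.419% were lower. That gene was Crot, with 9.46, 9.38, 10.13 and 9.62 in VAD SHAM VEH rats, against 10.40, 11.93, 10.84 and 11.73 in VAS SHAM VEH rats. The groups did not overlap and the fall was 2.99-fold (-1.58, SE 0.33, limma adjusted p = 0.0082). The call was lost without VAS SHAM VEH replicate 2, the highest rat (-1.34, limma adjusted p = 0.054), which left 0 of 34 genes called. The peroxisomal median was -0.30, with 7 of 7 changes below 0, and the mitochondrial median was 0.02, against 0 for all genes. Without VAD SHAM VEH replicate 4 the peroxisomal median was -0.16. At an unadjusted p under 0.05 there were 2 of 34 genes, against 1043 of 9314. On slides 1 and 3, which held both groups, the peroxisomal medians were -0.26 and -0.18.

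**Figure D4:**
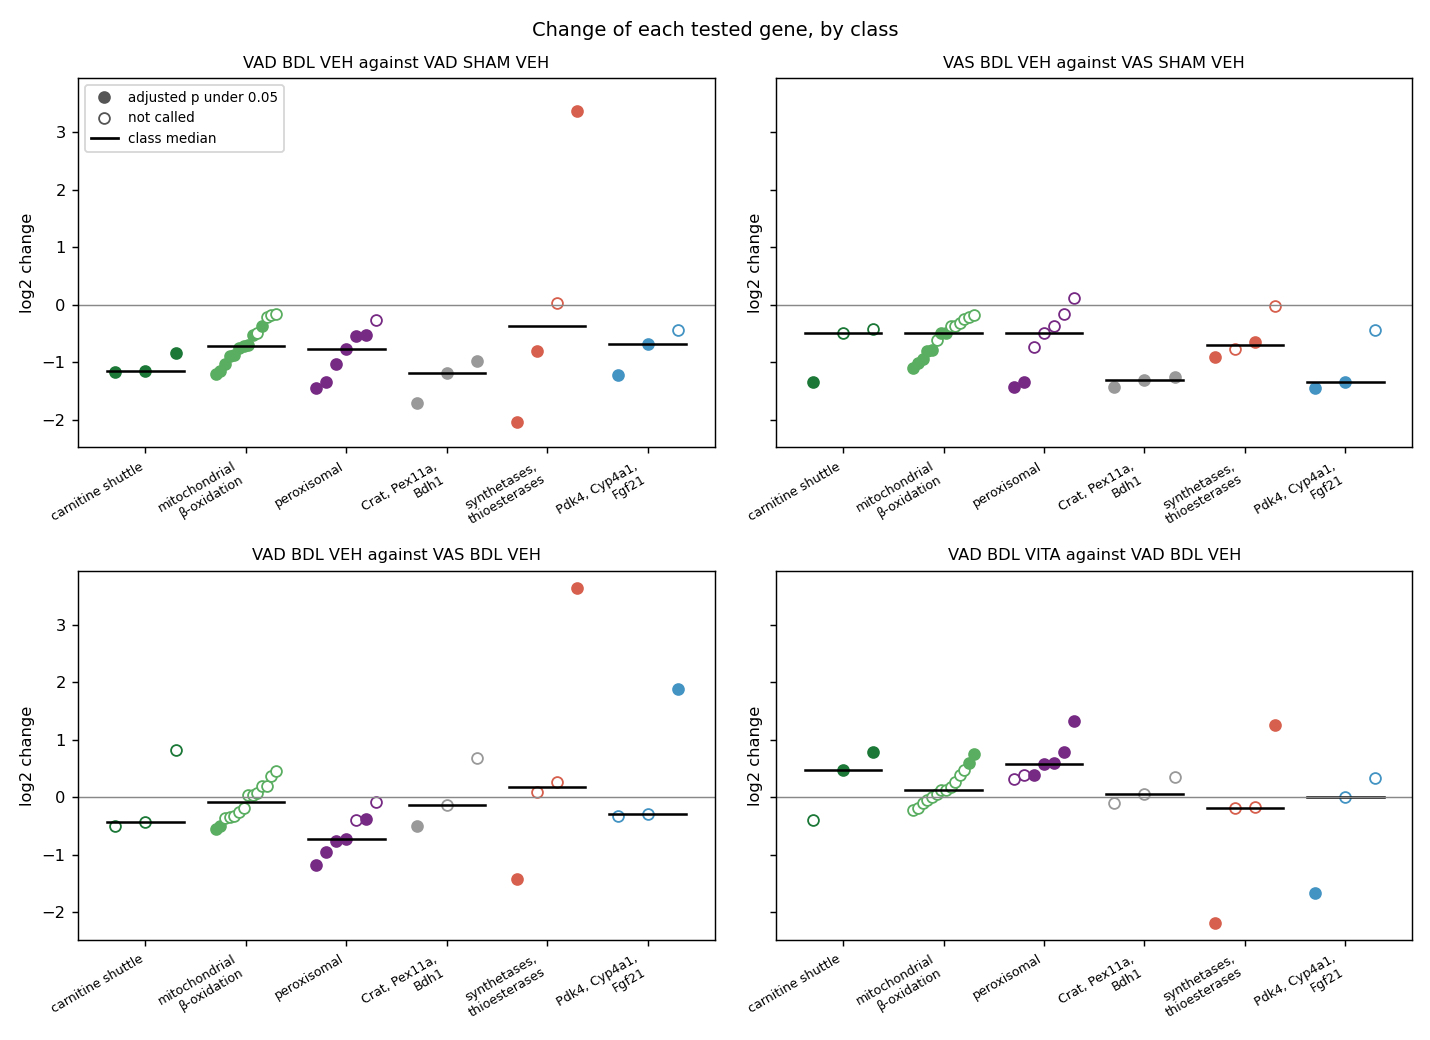
Log2 change of each tested gene (points, y axis) by class (x axis) in 4 comparisons, with filled points for an adjusted p under 0.05 and black bars for class medians. With ligation both organelles have medians below 0, while in VAD BDL VEH against VAS BDL VEH and in VAD BDL VITA against VAD BDL VEH the peroxisomal medians (-0.73 and 0.58) lie farther from 0 than those of mitochondrial β-oxidation (-0.08 and 0.12). The medians of the 3 carnitine shuttle genes (-0.43 and 0.47) lie between them.

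Retinyl palmitate was compared with vehicle within each diet and operation. In deficient ligated rats, 10 of 34 genes were higher and 2 lower in VAD BDL VITA than in VAD BDL VEH, where 17% of all genes were called, 7.67% higher and 9.32% lower. The peroxisomal genes had 5 of 7 higher (Decr2, Eci2, Acox3, Acaa1a and Hsd17b4; median 0.58) and the mitochondrial genes 4 of 17 (Slc25a20, Cpt2, Hadh and Etfa; median 0.13), against a median of 0 for all genes. Both this comparison and that of VAD BDL VEH with VAS BDL VEH hold the same 5 VAD BDL VEH arrays, so opposite signs in them are not separate evidence. Without VAD BDL VITA replicate 5, 8 genes were higher and 2 lower, with 15.3% of all genes called, 5 of 7 peroxisomal (median 0.57) and 2 of 17 mitochondrial (median 0.08). Leaving out other arrays gave mitochondrial medians of 0.03 (VAD BDL VEH replicate 1) to 0.23 (VAD BDL VEH replicate 4), with 0.21 without VAD BDL VITA replicate 3 and 0.20 without VAD BDL VEH replicate 5.

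Decr2 had 9.29, 9.61, 9.39, 9.68 and 10.79 in VAD BDL VITA rats, against 8.10, 8.22, 7.58, 9.13 and 9.08 in VAD BDL VEH rats. All supplemented rats lay above all vehicle rats, and the rise was 2.51-fold (1.33, SE 0.25, limma adjusted p = 0.00023; 1.07 without replicate 5, limma adjusted p = 0.0014). Eci2 had 10.11, 10.29, 10.28, 10.52 and 11.36 in VAD BDL VITA rats, against 9.49, 9.24, 9.23, 10.28 and 10.40 in VAD BDL VEH rats, with overlap (0.78, SE 0.20, limma adjusted p = 0.0058; 0.57 without replicate 5, limma adjusted p = 0.034). Slc25a20 had 9.04, 9.43, 9.28, 9.23 and 10.43 in VAD BDL VITA rats, against 8.89, 8.93, 8.22, 8.58 and 8.83 in VAD BDL VEH rats. It did not overlap and rose by 0.79 (SE 0.20, limma adjusted p = 0.0044; 0.55 without replicate 5, limma adjusted p = 0.024). Hadh rose by 0.59 (SE 0.15, limma adjusted p = 0.0041; 0.50 without replicate 5, limma adjusted p = 0.018). Etfa (0.75, limma adjusted p = 0.012) and Cpt2 (0.47, limma adjusted p = 0.045) lost their calls without that rat (0.62, limma adjusted p = 0.051, and 0.48, limma adjusted p = 0.06).

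Acsl1 had 12.88, 12.65, 13.34, 12.83 and 12.79 in VAD BDL VITA rats, against 11.15, 11.70, 11.60, 11.84 and 11.91 in VAD BDL VEH rats. Its groups lay apart and it rose 2.39-fold (1.26, SE 0.18, limma adjusted p = 2.9e-06; 1.28 without replicate 5). Acot1 had 4.51, 7.46, 4.67, 6.27 and 7.11 in VAD BDL VITA rats, of which 3 were detected, against 9.13, 8.00, 6.74, 8.11 and 8.98 in VAD BDL VEH rats. The groups overlapped at one vehicle rat, and Acot1 fell 4.55-fold (-2.19, SE 0.39, limma adjusted p = 9.5e-05; -2.46 without replicate 5). Fgf21 had 5.29, 7.30, 5.02, 5.74 and 6.75 in VAD BDL VITA rats, of which 3 were detected, against 7.79, 7.77, 7.07, 7.74 and 8.05 in VAD BDL VEH rats, a fall of 3.17-fold (-1.66, SE 0.43, limma adjusted p = 0.0062; -1.85 without replicate 5). In both genes VAD BDL VITA rats 2 and 5 were the 2 highest of their group. Crat (-0.10), Pex11a (0.05) and Bdh1 (0.36), each lower after ligation, were not called.

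Leaving out single arrays ended the call of Cpt2 in 8 of 10 cases (adjusted p of 0.056 to 0.13; 0.39 without VAD BDL VITA replicate 2), of Acaa1a in 3 (VAD BDL VEH replicate 4, VAD BDL VITA replicates 2 and 4; adjusted p of 0.055 to 0.068) and of Acox3 in 3 (VAD BDL VEH replicate 1, VAD BDL VITA replicates 2 and 3; adjusted p of 0.056 to 0.094). On slides 1, 2 and 3 the peroxisomal medians were 0.53, 0.63 and 1.02 and the mitochondrial medians 0.12, 0.11 and 0.33. The 12 called genes moved the same way there, except Acox3 on slide 3, where replicate 5 is the 1 supplemented rat. Of the 17 peroxisome biogenesis genes 6 were higher and 0 lower (Cat by 0.87, SE 0.24, limma adjusted p = 0.0091), of 26 general mitochondrial genes 2 were higher and 0 lower, and of 48 other pathway genes 14 were higher and 2 lower. Of all genes, 7.67% were higher and 9.32% lower, so the general mitochondrial share of higher genes was near that of all genes. Without replicate 5 the list counts were 5 and 0 (Cat at 0.97, limma adjusted p = 0.0059), 4 and 0, and 12 and 3. Of all genes 15.3% were then called in either direction. The share of all genes that were higher was not counted without that rat. The 4 of 26 general mitochondrial genes therefore cannot be set against it. The bile duct, macrophage and stellate sums were 2273 to 4274, 4417 to 7936 and 2300 to 4763 in VAD BDL VITA rats, against 3948 to 6849, 14704 to 22628 and 8782 to 15802 in VAD BDL VEH rats. The hepatocyte sum was 220228 to 234129 against 198070 to 235827. Of 13 hepatocyte markers 2 were higher and 0 lower, Apoa2 by 1.29 (SE 0.16, limma adjusted p = 3.8e-07) and Otc by 1.05 (SE 0.17, limma adjusted p = 3.5e-05). The part of these cells in the changes was not tested.

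In sufficient ligated rats VITA changed 0 of 34 genes by limma (0% of all genes called; 2 of 34 and 473 of 9314 at an unadjusted p under 0.05). The peroxisomal median was -0.06 and the mitochondrial median -0.09. The difference from the response of deficient ligated rats was tested as an interaction, and 10 of 34 genes passed, 8 positive and 2 negative, where 13.4% of all genes were called, 5.74% positive and 7.68% negative. Acsl1 (1.48, SE 0.25, limma adjusted p = 9.6e-05), Decr2 (1.32, SE 0.36, limma adjusted p = 0.011) and Etfa (1.17, SE 0.30, limma adjusted p = 0.0075) had the largest positive values (1.51, 1.06 and 1.04 without VAD BDL VITA replicate 5), and the others were Slc25a20 (0.95), Cpt2 (0.89), Acaa1a (0.87), Hadh (0.69) and Hsd17b4 (0.45). Acot1 (-2.45, SE 0.55, limma adjusted p = 0.0022) and Fgf21 (-2.01, SE 0.62, limma adjusted p = 0.025) were negative. Acot1 was below background on every array of both sufficient groups, so its size rests on background levels there. Without VAD BDL VITA replicate 5, 9 were positive and 2 negative, where 13.9% of all genes were called, Acox3 being added (0.82, SE 0.26, limma adjusted p = 0.029). Leaving out other arrays ended the calls of Hsd17b4 in 6 of 20 cases (adjusted p of 0.051 to 0.059), Fgf21 in 4 (VAD BDL VITA replicates 1 and 3, VAS BDL VITA replicates 1 and 3; adjusted p of 0.051 to 0.061) and Hadh in 1 (VAS BDL VITA replicate 3; 0.63, adjusted p of 0.053).

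In sham rats VITA changed 0 of 34 genes in either diet by limma. In VAD SHAM VITA against VAD SHAM VEH rats 1.3% of all genes were called, 0.741% higher and 0.558% lower, and 8 of 34 members, against 1066 of 9314 genes, had an unadjusted p under 0.05. The lowest of these was Fgf21, with 6.21, 7.45, 7.42 and 5.71 in VAD SHAM VITA rats, against 8.82, 7.23, 8.20 and 8.23 in VAD SHAM VEH rats (-1.42, SE 0.49, limma adjusted p = 0.18). One vehicle rat lay among the supplemented rats. Crot had 0.81 (SE 0.33, limma adjusted p = 0.31), and the peroxisomal median was 0.34 and the mitochondrial median -0.14. Those were 0.16 without VAD SHAM VEH replicate 4 (peroxisomal), and -0.03 without VAD SHAM VEH replicate 3 and -0.08 without VAD SHAM VITA replicate 3 (mitochondrial). In VAS SHAM VITA against VAS SHAM VEH rats 0.0215% of all genes were called, with medians of -0.04 (peroxisomal) and -0.01 (mitochondrial) and 1 of 34 members, against 347 of 9314 genes, at an unadjusted p under 0.05.

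Among supplemented rats, diet was associated with 0 called members. VAD BDL VITA against VAS BDL VITA had 0.0322% of all genes called, a peroxisomal median of 0.08 and a mitochondrial median of 0.20 (0.01 and 0.06 without replicate 5, with 0.0215% of all genes called), and 6 of 34 members, against 1157 of 9314 genes, at an unadjusted p under 0.05. VAD SHAM VITA against VAS SHAM VITA had 0% called, medians of -0.02 and -0.04, and 0 of 34 members, against 342 of 9314 genes, at that level. Decr2 had 9.29, 9.61, 9.39, 9.68 and 10.79 in VAD BDL VITA rats, against 9.87, 9.06, 9.95, 9.61 and 9.59 in VAS BDL VITA rats. The groups overlapped, and the 95% interval of the difference ran from -0.38 to 0.65 (0.13 with replicate 5 and -0.13 without it).

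Ligation was also compared among supplemented rats. In VAS BDL VITA against VAS SHAM VITA rats 21 of 34 were lower and 0 higher, where 25.3% of all genes were called and 10.8% were lower, with 12 of 17 mitochondrial (median -0.70) and 3 of 7 peroxisomal genes (median -0.61). Pdk4 had 6.31, 6.07, 5.91, 6.83 and 6.51 in VAS BDL VITA rats, against 7.80, 8.06, 9.07 and 7.78 in VAS SHAM VITA rats, a fall of 3.60-fold (-1.85, SE 0.28, limma adjusted p = 6.9e-06) without overlap. Bdh1 (-1.38, SE 0.20, limma adjusted p = 2.7e-06), Acox2 (-1.38, SE 0.26, limma adjusted p = 0.00013), Pex11a (-1.38, SE 0.29, limma adjusted p = 0.00042) and Cpt1a (-1.37, SE 0.40, limma adjusted p = 0.01) came next. Of the 21 calls, 15 held on leaving out each array in turn and 6 did not. Those lost were Decr2 and Eci1 (each in 5 of 9 cases; adjusted p up to 0.12 and 0.22), Acads (4; up to 0.086), Etfa (3; up to 0.068), Acox3 (1; without VAS BDL VITA replicate 3, 0.053) and Acsl5 (1; without VAS SHAM VITA replicate 4, 0.07). On slides 2 and 3 all 21 moved the same way, with mitochondrial medians of -0.53 and -0.54 and peroxisomal medians of -0.60 and -0.72. The bile duct, macrophage and stellate sums were 1407 to 3028, 5143 to 9574 and 1223 to 3304 in VAS BDL VITA rats, against 234 to 458, 2095 to 2346 and 667 to 1184 in VAS SHAM VITA rats. The hepatocyte sum was 209603 to 231553 in VAS BDL VITA rats, against 231434 to 243470 in VAS SHAM VITA rats, and the part of these cells was not tested.

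In VAD BDL VITA against VAD SHAM VITA rats 14 of 34 were lower and 1 higher, where 24.3% of all genes were called, 11% lower and 13.3% higher, with 6 of 17 mitochondrial (median -0.32) and 3 of 7 peroxisomal genes (median -0.72). Without VAD BDL VITA replicate 5 there were 18 lower and 1 higher, where 26.5% of all genes were called, with 8 of 17 mitochondrial (median -0.41) and 4 of 7 peroxisomal genes (median -0.66). Pdk4 had 5.82, 6.13, 6.79, 6.57 and 6.44 in VAD BDL VITA rats, against 8.16, 8.24, 7.71 and 8.40 in VAD SHAM VITA rats (-1.78, SE 0.28, limma adjusted p = 1.3e-05; -1.80 without replicate 5). Bdh1 had 8.64, 9.87, 9.84, 9.26 and 9.93 in VAD BDL VITA rats, against 11.06, 10.84, 10.67 and 10.95 in VAD SHAM VITA rats (-1.37, SE 0.20, limma adjusted p = 3.3e-06; -1.48 without replicate 5). Neither gene overlapped. Etfdh, the dehydrogenase that passes the electrons on to the respiratory chain, had 10.28, 10.33, 10.37, 10.46 and 11.76 in VAD BDL VITA rats, against 11.21, 11.59, 11.15 and 11.35 in VAD SHAM VITA rats. Replicate 5 lay above every sham rat and the other 4 below (-0.68, SE 0.20, limma adjusted p = 0.011; -0.96 without replicate 5, limma adjusted p = 4.5e-06). Acot1 was the gene called higher, at least 1.33-fold (limma adjusted p = 0.0091), below background on all sham arrays and on 2 of 5 ligated arrays. On slides 1 and 2 all 15 called genes moved the same way, but on slide 3, where replicate 5 was the 1 ligated rat, 10 of 15 did and Decr1, Etfb, Etfdh, Acox2 and Decr2 did not. The calls of Decr2 and Pex11a were lost in 7 and 6 of 9 cases of 1 array left out (adjusted p up to 0.13 and 0.17) and that of Decr1 in 1 (without VAD BDL VITA replicate 1, limma adjusted p = 0.057). The bile duct, macrophage and stellate sums were 2273 to 4274, 4417 to 7936 and 2300 to 4763 in VAD BDL VITA rats, against 360 to 611, 2551 to 3698 and 723 to 770 in VAD SHAM VITA rats. The hepatocyte sum was 220228 to 234129 in VAD BDL VITA rats, against 225844 to 231450 in VAD SHAM VITA rats, and the part of these cells was not tested.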

How the data were processed

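Mean bead intensity of 22523 probes and a detection p-value per probe were deposited by the authors for each of 36 arrays, on a linear intensity scale, per the file headers. The authors also deposited a value table, linear with a column median of 212, whose scaling is unknown. RNA was extracted with TriReagent and labelled with the TotalPrep kit, per the labels' protocols. The neqc function (limma 3.58.1 in R 4.3.3, offset 16) corrected background and quantile normalised the intensities. Of the probes, 9545 had a detection p under 0.01 on 4 or more arrays; each of 9314 genes was represented by its brightest one. Names were matched to RefSeq (GRCr8), used only for names and promoters: 9532 probes by symbol, 1824 by gene ID, 5410 by synonym, and 5757 kept the file's name. By older names came Hadh (HADHSC), Eci1 (DCI), Acaa1a (ACAA1), Eci2 (PECI), Acot1 (CTE1), Acot2 (MTE1) and Cyp4a1 (CYP4A10 and CYP4A22). All comparisons came from a single limma fit of the 8 groups with 28 residual degrees of freedom, moderated errors and two-sided p. Where all arrays of a group were below background, the fold is a lower bound. Plots were drawn in matplotlib 3.10.9 (Python 3.11.15; tables in pandas 2.3.3). Called members are named by class, with full values for at most the 6 largest changes of a comparison, and of the neighbouring lists at most 4 genes. The members and lists were chosen with earlier results of these data known. The number of arrays limits precision. The model was tested on simulated data. Replicate numbers did not pair rats. Alternatives were other background corrections and scalings, the authors' table, other filters, the mean of probes, slide or replicate blocks, separate fits and each array left out.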

Additional observations from a re-analysis of the deposited data

Results flagged for a closer look

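In 288 groups of 4 or 5 rats (34 genes and both organelle means in 8 groups), 16 held a rat far from the others by Dixon's ratio, where chance gives about 1 in 20. VAD BDL VITA replicate 5 was such a rat in 6, high in Slc25a20 (10.43, others up to 9.43), Acads (9.84, others up to 8.68), Etfdh (11.76, others up to 10.46), Decr2 (10.79, others up to 9.68), Crot (11.01, others up to 9.53) and the peroxisomal mean (0.40, others up to -0.23). Replicate 2 of that group was high in Cpt2 (11.55). In VAS BDL VITA, replicate 3 was low in Acaa1a (12.34) and Acsl1 (12.15) and high in the mitochondrial mean (-0.16), and replicate 1 was low in Acads (8.14). In VAD SHAM VEH, replicate 4 was low in Hadha (10.06) and replicate 1 high in Etfb (7.55). Eci2 was high in VAD SHAM VITA replicate 3 (10.76) and VAS SHAM VITA replicate 4 (11.21), and Bdh1 was low in VAS SHAM VEH replicate 2 (10.85).

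The response to ligation differed between diets for Acsl1 (-1.37) and Acot1 (3.40), by the interaction term. The response to retinyl palmitate in ligated rats differed between diets for Acsl1 (1.48), Decr2 (1.32), Etfa (1.17), Slc25a20 (0.95), Cpt2 (0.89), Acaa1a (0.87), Hadh (0.69), Hsd17b4 (0.45), Acot1 (-2.45) and Fgf21 (-2.01). The sizes for Acot1 rest on levels below background on every array of VAD SHAM VEH, VAS BDL VITA, VAS BDL VEH and VAS SHAM VEH rats.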

How the results depend on the processing

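Of 116 called member changes, 112 kept their call with the authors' value table, 115 with normexp and offset 50, 93 with median scaling, 105 without a filter, 114 with slide as a block and 96 when only the groups of a comparison were fitted; 0 called changes turned direction under these or with 1 array left out. With median scaling, the all-gene median for ligation became 0.15 (VAS BDL VEH) and 0.23 (VAD BDL VEH against sham). There 15 and 22 members were called lower, tested against no change and not against those medians. In VAD BDL VEH against VAS BDL VEH 3 were then higher and 7 lower. It gave 6 members in the VITA by diet interaction (4 higher, 2 lower) and a mitochondrial median of -0.47 in VAD BDL VITA against VAD SHAM VITA. The authors' table gave a peroxisomal median of -0.40 in VAD BDL VEH against VAS BDL VEH. Detection on at least 9 arrays, which removes Acot1, left 1 member in the diet by ligation interaction. Separate fits gave 0 members in VAD SHAM VEH against VAS SHAM VEH, 7 in VAD BDL VITA against VAD BDL VEH and 7 in VAD BDL VITA against VAD SHAM VITA. With 1 array left out, members called in VAD SHAM VEH against VAS SHAM VEH were 0 to 1. The cause of these shifts was not tested.

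Replicate numbers did not pair rats: correlations of equally numbered rats ran from -0.19 to 0.41, and 0 of 12 comparisons had them all above 0.1. With the replicate block 115 of 116 calls were kept and 14 gained. Signal over background limits Acot1, Acot2, Ppara and Ppargc1a most.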
